A study of Mus musculus with 28 samples.

Results

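The response of mouse skin to one dose of ultraviolet B (UVB) light was described across all expressed genes in wild-type animals, from 3 irradiated libraries (UV 1 to UV 3) and 3 unirradiated libraries (NoUV 1 to NoUV 3). These 6 libraries are part of a series of 28 that was made to ask what VISTA does in irradiated skin. VISTA, the product of Vsir, is an inhibitory receptor of immune cells. The libraries are named by the replicate numbers in their labels. The labels give the genotype as WT, with no strain, and call the tissue skin. The animals were 12-week-old females that were shaved and treated with a depilatory cream 5 days before the experiment, and the irradiated group received 500 mJ/cm2 of UVB. Shaving and depilation were shared by both groups. The sample titles place harvest 3 h after irradiation, whereas the treatment protocol speaks of 1 day, and the files do not settle which is right. The series text calls its samples biological replicates but names no animals, so each p-value measures the spread between libraries. Libraries from Vsir-/- skin (VISTAKO, 3 unirradiated and 3 irradiated), from the same batch date, entered the same fit. Libraries from Vsir fl/fl skin without Cre (4 unirradiated and 4 irradiated, a later batch date) were used as a second set of controls that shares no library with the wild-type comparison.

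UVB is absorbed mainly in the epidermis, where it forms pyrimidine dimers in DNA, switches on growth factor receptors and stress kinases, and is followed by inflammation of the dermis. The first transcripts to appear in such a response encode AP-1 and related factors, and chemokines that draw in monocytes and neutrophils follow. Bulky DNA lesions are removed by nucleotide excision repair, and they block RNA polymerase where it meets them, so that long genes are more often hit than short ones.

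The 6 wild-type libraries held 31.66 to 43.84 M counts. Levels are given in CPM, the counts of a gene per M counts of its library (M, mega), scaled between libraries by the trimmed mean of M values. They describe 1 gene between libraries and are not scaled to gene length. Markers of the labelled tissue were abundant in every library: suprabasal keratinocyte genes summed to 39564 to 46451 CPM without UVB and 30369 to 42338 CPM with it, and basal keratinocyte genes to 6981 to 14316 and 7780 to 12883 CPM. Fast muscle genes, from the muscle layer under the skin, summed to 9788 to 17543 CPM without UVB and 15989 to 22246 CPM with it. In a principal component analysis, component 1 (47% of variance) separated the irradiated libraries from the others. Component 2 (26.8%) set NoUV 1 and UV 2 apart from the other members of their groups. Those 2 libraries also had the lowest shares of mitochondrially encoded counts, 3.58% and 4.11%, against 5.23% to 7.58% in the other 4. The counts over the lists described below were recomputed without this pair.

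Of 20365 genes tested, 3817 changed after UVB (18.7%) at a Benjamini-Hochberg adjusted p under 0.05 in edgeR's quasi-likelihood test, 1814 upwards (8.91%) and 2003 downwards (9.84%). The 2 directions differed in kind. Among 15304 protein-coding genes, 696 rose (4.55%) and 1947 fell (12.7%). Fewer than 1 in 2 of the 1814 rises were thus protein-coding, but this balance turned under other choices: protein-coding genes made up 798 of 1578 rises without NoUV 1 and UV 2, 1124 of 2051 without NoUV 1 alone, and 818 of 1512 with a filter of 1 CPM in 3 libraries. Of the genes that rose, 1436 did so by 2-fold or more, 376 of them protein-coding. Of the genes that fell, 805 did so by 2-fold or more, 766 of them protein-coding. All 3 irradiated libraries lay above or below all 3 unirradiated ones for 5985 genes (29.4%). The balance of rises and falls depended on the scaling: with upper-quartile scaling, which moves the median of all genes from -0.011 to 0.132 on the log2 scale, 2556 genes rose and 1300 fell, and among protein-coding genes 1242 rose and 1270 fell. When only the 6 wild-type libraries were fitted, 1288 genes passed (740 rises, 548 falls), and the counts of rises and of falls over lists dropped with them: to 3 and 0 for the monocyte chemokines, 0 and 4 for the MAP kinase phosphatases, 0 and 1 for the EGF receptor family, 2 and 0 for the p53 targets, 0 and 1 for the cytokines, 0 and 2 for the T and dendritic cell chemokines, 0 and 2 for the cell cycle, and 2 and 0 for the feedback inhibitors. Without NoUV 1 and UV 2, 1182 of the 1814 rises and 1539 of the 2003 falls were called again. The numbers of list members called higher and lower without the pair were 5 and 0 for the monocyte chemokines, 0 and 5 for the MAP kinase phosphatases, 1 and 3 for the EGF receptor family, 5 and 1 for the p53 targets, 1 and 0 for nucleotide excision repair, 3 and 1 for the acute phase genes and for the clock, and 3 and 1 for the glucocorticoid and fasting genes. They were 0 and 6 for the T and dendritic cell chemokines, 2 and 2 for the NRF2 targets, 2 and 1 for heat shock and unfolded protein, 1 and 1 for the stress keratins, 1 and 0 for the collagens and for fast muscle, 3 and 0 for the adipocyte markers, and 0 and 1 for the checkpoint genes. The other lists with counts below either did not move or have the value beside them. Where no share stands beside a list count, those of all protein-coding genes apply, 4.55% called higher and 12.7% lower.

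**Figure D1:**
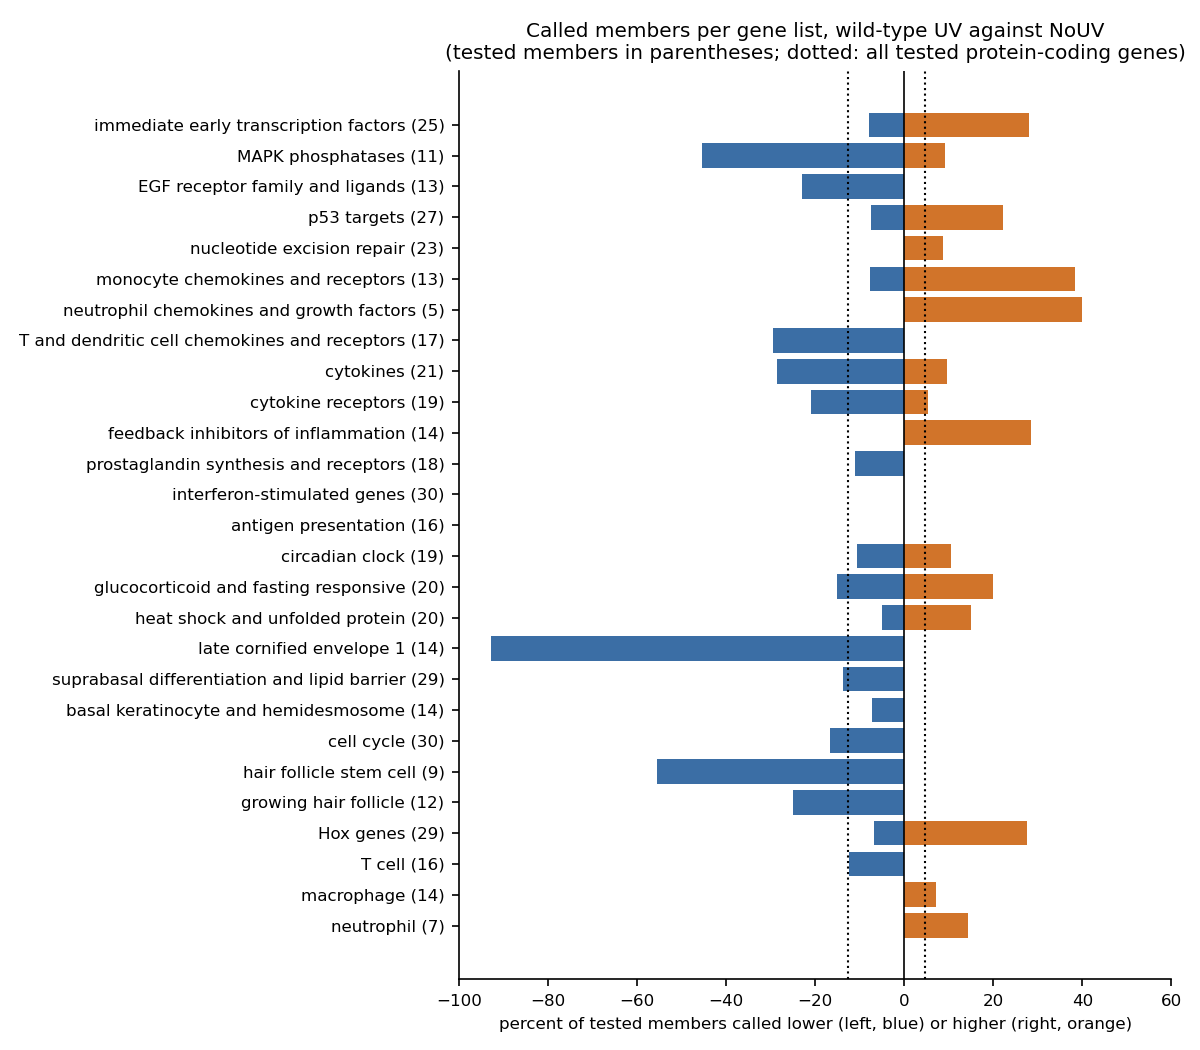
Percent of the tested members of each gene list that were called lower (left, blue) or higher (right, orange) in wild-type UV against NoUV libraries, with the number tested in parentheses and dotted lines at the shares of all tested protein-coding genes, 12.7% lower and 4.55% higher. Late cornified envelope 1 genes stand at the far left with 13 of 14 lower, and the interferon-stimulated and antigen presentation lists have no bar.

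Several chemokines that attract monocytes rose. Of 13 such ligands and receptors tested, 5 rose and 1 fell, with a median log2 fold change of 0.53. Of all genes 8.91% rose and 9.84% fell, and of protein-coding genes 4.55% and 12.7%. Ccl2, the main ligand for the monocyte receptor CCR2 (GRCm38 chr11:82035571-82037453), was at 6.48, 4.04 and 7.29 CPM in NoUV 1 to 3 and at 19.5, 43.8 and 29.6 CPM in UV 1 to 3. Its neighbour Ccl7 (chr11:82045712-82047525), another CCR2 ligand, was at 8.90, 2.40 and 7.64 CPM without UVB and 36.4, 68.5 and 61.4 CPM with it. Every irradiated library lay above every unirradiated one for both genes, and the log2 fold changes were 2.38 (SE 0.32, adjusted p = 5.48e-04) and 3.13 (SE 0.42, adjusted p = 5.72e-04). Ccl9, a ligand of CCR1 in the mouse, went from 56.7, 30.9 and 36.5 CPM to 103, 125 and 149 CPM, also without overlap (log2 fold change 1.60, adjusted p = 8.35e-04). Ccl6 and Ccl12 rose by 1.27 and 1.62 on the log2 scale, but Ccl6 passed the threshold no longer without UV 3 (adjusted p = 0.0528), and Ccl12 no longer without NoUV 2, NoUV 3 or UV 2 (adjusted p = 0.0547, 0.0564 and 0.0519). The receptor Ccr2 fell, from 45.4, 31.3 and 91.5 CPM to 15.7, 12.3 and 28.8 CPM, and this call was lost without NoUV 3, UV 1 or UV 2 (adjusted p = 0.122, 0.0688 and 0.0913). Macrophage markers overlapped between the groups as a sum, 676 to 1163 CPM without UVB and 872 to 1467 CPM with it. In bulk tissue, a change in the number of cells and a change in RNA per cell cannot be told apart.

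Of the neutrophil chemokines and growth factors, 5 of 8 were expressed enough to test and 2 of these rose. Cxcl1, which attracts neutrophils through CXCR2 (chr5:90891241-90893115), was at 1.92, 1.23 and 0.926 CPM without UVB and at 15.0, 16.8 and 11.9 CPM with it, a log2 fold change of 3.40 (SE 0.66, adjusted p = 0.00386). The irradiated libraries were alike and all well above the others. Csf3, the neutrophil growth factor G-CSF, had 1 count over the unirradiated libraries and 21 over the irradiated ones, a ratio of 22.7 after scaling to depth with an exact 95% interval of 3.65 to 938, which covers counting error only. Its call was lost without NoUV 3 or UV 2 (adjusted p = 0.0523 and 0.0561). Cxcl2, a second CXCR2 ligand, was at 3.52, 0 and 0.717 CPM and at 3.58, 8.74 and 3.22 CPM and was not called (adjusted p = 0.169), although it passed without NoUV 1 (adjusted p = 0.0191). Neutrophil markers were near the limit of detection: 5 of 12 stayed under 1 CPM in all 6 libraries, and their sums overlapped, at 18.5 to 57.2 CPM without UVB and 30.2 to 43.9 CPM with it.

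The 250 bases before the start of Cxcl1 are shown because Cxcl1 had the largest fold change of the chemokines called higher. The sequence is that of RefSeq on GRCm38.p6, chr5:90890995-90891244, plus strand, with matches in capitals to a kappa B type motif, which is GGGA, then any 3 bases, then TCC.
Cxcl1: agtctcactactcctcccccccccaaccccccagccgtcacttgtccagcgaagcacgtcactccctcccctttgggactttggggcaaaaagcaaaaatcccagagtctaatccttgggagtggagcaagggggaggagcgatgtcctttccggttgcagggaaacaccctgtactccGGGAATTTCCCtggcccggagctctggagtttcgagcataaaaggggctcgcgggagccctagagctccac
The capitals hold 2 overlapping matches, 1 on each strand, that begin 71 and 70 bases before the start. At least 1 match stood in 3.86% of the 32851 promoters in the RefSeq table and at least 2 in 0.731%. Searches of the same 250 bases, on both strands, for TGACGTCA (the cAMP response element), TGANTCA (AP-1), CACGTG (E-box), TGCNCNC (the core of the metal response element) and for the CArG box gave no match. A match describes letters and does not show that a factor binds.

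The immediate early genes, a list of transcription factors and some other early genes such as Zfp36, Ier3 and Btg2, were divided. Of 25 tested, 7 rose and 2 fell, beside 4.55% and 12.7% of all protein-coding genes, and the median log2 fold change was 0.44. Zfp36, whose protein binds AU-rich messenger RNAs and speeds their decay, went from 105, 47.2 and 47.7 CPM to 335, 323 and 217 CPM (log2 fold change 2.12, adjusted p = 6.95e-04). Ier3, an early survival gene, went from 34.2, 17.9 and 22.6 CPM to 79.0, 171 and 118 CPM (2.30, adjusted p = 5.10e-04). Jun, a subunit of AP-1, went from 85.2, 49.7 and 62.9 CPM to 150, 255 and 171 CPM (1.54, adjusted p = 8.76e-04). For these 3 genes the groups did not overlap and NoUV 1 was the highest of the unirradiated libraries. Maff, a small basic leucine zipper factor, rose by 1.31 (adjusted p = 0.00381). Atf3, a stress-induced factor of the same class, was at 12.2, 10.3 and 13.0 CPM without UVB and 23.3, 49.8 and 57.0 CPM with it (1.87, adjusted p = 0.00380, or 0.0600 without the pair set apart on the second component). Fosl1, another AP-1 subunit, and Btg2, an antiproliferative gene, rose by 1.5 and 0.70 (adjusted p = 0.0393 and 0.0425), with calls lost without any single library but UV 1 for Fosl1 (adjusted p up to 0.131) and but NoUV 1 for Btg2 (up to 0.137). Fos itself was at 177, 26.7 and 39.6 CPM without UVB and 54.6, 69.9 and 58.5 CPM with it. NoUV 1 thus held more Fos than any irradiated library, the groups overlapped, and Fos was not called (log2 fold change -0.41, adjusted p = 0.703).

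The AP-1 subunit Fosl2 moved the other way, from 181, 205 and 193 CPM to 116, 101 and 108 CPM, with little spread in either group (log2 fold change -0.83, SE 0.14, adjusted p = 0.00166). Egr3, a zinc finger early factor, fell by 0.82 (adjusted p = 0.0112), a call lost without NoUV 3 (adjusted p = 0.0602). Phosphatases that switch off MAP kinases, most of which are themselves early response genes, included falls. Of 11 tested, 1 rose and 5 fell, beside 4.55% and 12.7% of all protein-coding genes, with a median of -0.52. Dusp5, which acts on ERK in the nucleus, was at 21.4, 14.4 and 22.4 CPM without UVB and 3.23, 3.75 and 6.46 CPM with it (log2 fold change -2.11, SE 0.31, adjusted p = 8.71e-04). Dusp7, an ERK phosphatase of the cytoplasm, went from 164, 135 and 95.5 CPM to 43.9, 58.1 and 69.5 CPM (-1.21, adjusted p = 0.00242). The irradiated libraries lay below all unirradiated ones for both genes. Dusp4 and Dusp14 fell by 1.26 each on the log2 scale (adjusted p = 0.00764 and 0.00442). Dusp16 fell by 0.52 and lost its call without NoUV 2, NoUV 3, UV 2 or UV 3 (adjusted p = 0.175, 0.0855, 0.0825 and 0.0831). Dusp2, the member that rose, did so by 1.05 on the log2 scale and lost its call without any single 1 of the 6 libraries (adjusted p up to 0.144).

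In the EGF receptor family and its ligands, 3 of 13 fell. The receptor Erbb3 was at 128, 127 and 170 CPM without UVB and 73.9, 77.6 and 76.4 CPM with it (log2 fold change -0.90, adjusted p = 0.00142), and its partner Erbb2 went from 116, 81.4 and 78.8 CPM to 46.8, 67.1 and 36.5 CPM (-0.88, adjusted p = 0.0109). The ligand Tgfa went from 40.4, 40.2 and 42.9 CPM to 25.2, 27.7 and 19.8 CPM (-0.76, adjusted p = 0.00360). No irradiated library reached the unirradiated range for any of the 3. Erbb2 and Tgfa did not pass when only the 6 wild-type libraries were fitted (adjusted p = 0.0831 and 0.0573). The ligand Hbegf was at 14.6, 8.27 and 13.0 CPM and at 13.4, 24.0 and 37.1 CPM, with overlap (log2 fold change 1.05, adjusted p = 0.0769).

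Among feedback inhibitors of inflammation, 4 of 14 rose, and the median over the list was 0.28. Besides Zfp36 these were Socs3, which blocks signalling by receptors of the interleukin 6 family, and Socs2 and Il1r2, the decoy receptor for interleukin 1. Socs3 was at 21.5, 13.9 and 11.6 CPM without UVB and 45.5, 92.3 and 49.7 CPM with it, without overlap (log2 fold change 1.99, adjusted p = 0.00219). Il1r2 went from 31.4, 52.0 and 42.8 CPM to 76.3, 76.2 and 67.5 CPM (0.80, adjusted p = 0.0115), and Socs2 rose by 1.11 (adjusted p = 0.0107). The last 2 did not pass with only the 6 wild-type libraries fitted (adjusted p = 0.0565 for Il1r2 and 0.0629 for Socs2). Among 13 acute phase and C/EBP genes, Ptx3 and Cebpd rose. Ptx3, a secreted pattern recognition protein, went from 1.45, 1.64 and 1.82 CPM to 20, 16.7 and 5.58 CPM (3.10, adjusted p = 0.00353, or 0.0788 without the pair set apart). Cebpd, a C/EBP factor, rose by 1.68 (adjusted p = 0.0214), a call lost without NoUV 2, UV 1 or UV 2 (adjusted p = 0.0546, 0.0569 and 0.0877).

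**Figure D2:**
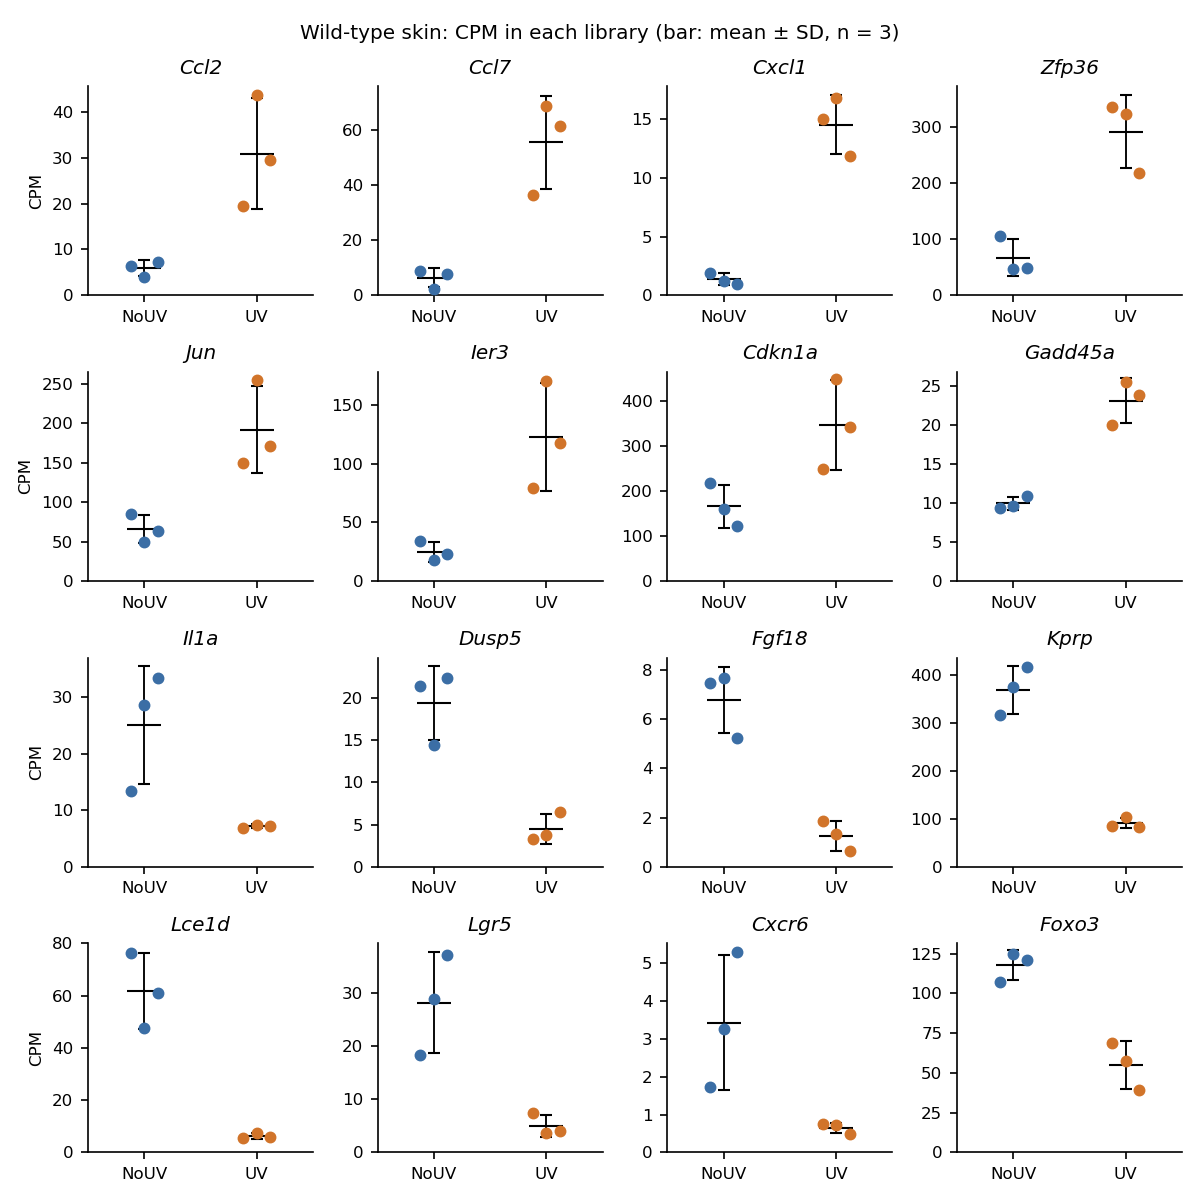
CPM of 16 genes in each wild-type library (points: libraries 1 to 3 from left to right; bars: mean ± SD, n = 3 a group). The groups do not overlap in any panel: Ccl2 to Gadd45a lie higher in the irradiated libraries, and Il1a to Foxo3 lie lower. The panels are a choice of genes with separate groups and follow no fixed rule. Groups were separate for 29.4% of all genes tested.

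DNA damage genes responded in part. Of 27 p53 targets tested, 6 rose and 2 fell, beside 4.55% and 12.7% of all protein-coding genes. The median was 0.04, near the centre of all genes. Gadd45a, a growth arrest and repair factor, was at 9.32, 9.56 and 10.9 CPM without UVB and 19.9, 25.5 and 23.8 CPM with it, without overlap (log2 fold change 1.22, SE 0.15, adjusted p = 4.12e-04). The kinase gene Plk2 went from 29.5, 30.3 and 34.6 CPM to 50.5, 61.8 and 129 CPM (1.35, adjusted p = 0.00529). Cdkn1a, which encodes the cell cycle inhibitor p21, went from 217, 160 and 122 CPM to 249, 449 and 342 CPM (1.06, adjusted p = 0.0135). UV 1 lay only a little above NoUV 1 for Cdkn1a, and the call was lost without NoUV 3 or UV 2 (adjusted p = 0.0517 and 0.0588). Pmaip1, which encodes the death protein Noxa, rose by 1.41 (adjusted p = 0.0153, or 0.0814 with only the wild-type libraries fitted), with UV 3 highest at 77.0 CPM and UV 1 and UV 2 at 25.2 and 23.4 CPM. Sesn1 fell by 1.08 (adjusted p = 0.00998), but not without the pair set apart (adjusted p = 0.0629), and Zmat3 fell by 0.55, with the call lost without NoUV 2, NoUV 3 or UV 2 (adjusted p = 0.0873, 0.0702 and 0.0565). Of 23 nucleotide excision repair genes, Ddb2, a dimer recognition factor, and Ercc5, the nuclease that cuts 3' of the lesion, rose, by 0.53 and 0.43 on the log2 scale. These 2 rises stood beside 4.55% of all protein-coding genes called higher. Both calls were fragile. Ddb2 lost its call without any single library but UV 3 (adjusted p 0.0599 to 0.128), and Ercc5 lost it without NoUV 1, NoUV 3, UV 1 or UV 3 (adjusted p = 0.0574, 0.0646, 0.122 and 0.0618).

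Cytokine genes went in both directions. Of 21 tested, 6 fell and 2 rose, or 4 and 1 without NoUV 1 and UV 2, beside 12.7% and 4.55% of all protein-coding genes, and 10 lay above 0 and 11 below with a median of -0.19. Il1a, which keratinocytes store and release on injury, was at 13.4, 28.6 and 33.4 CPM without UVB and 6.88, 7.44 and 7.23 CPM with it (log2 fold change -1.80, SE 0.28, adjusted p = 0.00118). The irradiated libraries were nearly equal, while the unirradiated ones spread more than 2-fold. The alarmin Il33 and the cytokines Il18 and Il15 fell by 0.80, 0.84 and 0.78 on the log2 scale (adjusted p = 0.0216, 0.0233 and 0.0251). Il33 lost its call without NoUV 1 or UV 2 (adjusted p = 0.0553 and 0.0677), Il18 without NoUV 3, UV 1 or UV 2 (0.124, 0.0640 and 0.0627), and Il15 without NoUV 3, UV 2 or UV 3 (0.110, 0.0596 and 0.0678). Il10, the main anti-inflammatory cytokine, was at 0.419, 0.0316 and 0.299 CPM without UVB and 1.19, 1.05 and 1.08 CPM with it (2.08, adjusted p = 0.0275), with the call lost without any single library but NoUV 1 (adjusted p 0.0522 to 0.0588). Il6 was at 1.52, 0.316 and 1.05 CPM and at 3.07, 2.81 and 4.33 CPM. These values did not overlap, but Il6 was not called (log2 fold change 1.80, adjusted p = 0.0637). Tnf overlapped, at 1.06, 0.884 and 0.896 CPM and at 0.452, 2.65 and 3.39 CPM (adjusted p = 0.129).

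Some chemokine receptors of T and dendritic cells fell. Of 17 ligands and receptors of that kind, 5 fell, beside 12.7% of all protein-coding genes, and the median was -0.66. Ccr7, which guides dendritic cells and T cells to lymph nodes, was at 1.48, 0.947 and 0.866 CPM without UVB and 0.258, 0.0551 and 0.0285 CPM with it (log2 fold change -3.29, adjusted p = 0.00497). Cxcr6, a receptor of tissue T cells, went from 1.74, 3.25 and 5.29 CPM to 0.742, 0.717 and 0.484 CPM (-2.39, adjusted p = 0.00279). Xcr1, a marker of cross-presenting dendritic cells, fell by 1.56 (adjusted p = 0.0138, or 0.0762 with only the wild-type libraries fitted). The groups did not overlap for any of these 3 receptors, all at low levels. Ccr6 and Cxcr3 also fell, by 1.40 and 1.23, but Ccr6 lost its call without NoUV 2, NoUV 3, UV 2 or UV 3 (adjusted p up to 0.0998), and Cxcr3 without NoUV 1, NoUV 3 or UV 2 (up to 0.0954). Of 16 T cell markers, 2 fell, a share near that of all protein-coding genes (12.7%), and 5 fell without NoUV 1 and UV 2. Trac, the constant region of the alpha T cell receptor, went from 1.56, 1.61 and 3.26 CPM to 0.484, 0.496 and 0.711 CPM (-1.91, adjusted p = 0.00412). Foxp3, of regulatory T cells, fell by 1.32 with a call that was lost without any single library but UV 1 (adjusted p 0.0502 to 0.0985). The other 14 markers were not called, and the sum over the list was 66.7 to 82.1 CPM without UVB and 48.5 to 66.5 CPM with it. The part of T cell number in the receptor values was not tested.

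Vsir was at 46.1, 34.6 and 34.5 CPM without UVB and 22, 20.2 and 24.0 CPM with it, a log2 fold change of -0.80 (SE 0.22, adjusted p = 0.0223). The groups did not overlap, but the call was lost without NoUV 1, UV 1 or UV 2 (adjusted p = 0.0521, 0.0502 and 0.0599). Lrig1, a reported binding partner of VISTA and a brake on EGF receptors, went from 127, 120 and 130 CPM to 80.1, 56.2 and 37.5 CPM (-1.12, SE 0.22, adjusted p = 0.00463). These were the 2 members called among 14 checkpoint genes and VISTA partners.

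Interferon-stimulated genes did not pass the test in wild-type skin. None of 30 was called by edgeR, 2 had an unadjusted p under 0.05, DESeq2 called 1, and the median log2 fold change was 0.00 with a range of -0.41 to 1.15. Without NoUV 1 and UV 2, edgeR called 1 member higher and the median was 0.40, and with upper-quartile scaling it also called 1. Ifit1, a classical member, was at 6.92, 3.79 and 9.29 CPM without UVB and 4.91, 2.59 and 27.7 CPM with it, so that UV 3 alone lay above the unirradiated range (adjusted p = 0.441). Irf7, a factor of the interferon loop, was at 18.4, 3.94 and 8.87 CPM and at 7.84, 17.3 and 17.8 CPM (adjusted p = 0.518), and Isg15 at 4.58, 0.820 and 1.05 CPM and at 1.45, 3.42 and 4.01 CPM (adjusted p = 0.666). NoUV 1 was the highest unirradiated library for Irf7 and Isg15. None of 16 antigen presentation genes was called by edgeR, 1 had an unadjusted p under 0.05 and DESeq2 called 1, with a median of -0.17.

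Metabolic genes included large changes. Trim63, the ubiquitin ligase MuRF1 of wasting muscle, was at 27.6, 23.8 and 16.8 CPM without UVB and 109, 130 and 180 CPM with it (log2 fold change 2.62, SE 0.33, adjusted p = 4.28e-04). Pdk4, which shuts down glucose oxidation in fasting, went from 84.7, 61.8 and 20.7 CPM to 402, 358 and 249 CPM (2.59, adjusted p = 0.0101, or 0.0680 without the pair set apart). Foxo3, a transcription factor of the same response, moved down, from 107, 125 and 121 CPM to 68.8, 57.7 and 39.0 CPM (-1.09, SE 0.19, adjusted p = 0.00210). Of the 20 glucocorticoid and fasting responsive genes, 4 rose and 3 fell, with a median of 0.52. Myh1, a fast muscle myosin, went from 534, 513 and 555 CPM to 4408, 2416 and 2384 CPM (2.52, adjusted p = 1.94e-04). Of 14 fast muscle markers, 2 rose and 1 fell, and the sums of the list overlapped as given above. The part of muscle content in Trim63, Pdk4 and Myh1 was not tested.

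Of 19 clock genes, 2 rose and 2 fell, beside 8.91% and 9.84% of all genes and 4.55% and 12.7% of protein-coding genes. Per2, a repressor in the clock loop, was at 3.35, 2.97 and 1.52 CPM without UVB and 7.68, 9.18 and 8.65 CPM with it (log2 fold change 1.70, adjusted p = 0.00977). Ciart, another clock repressor, went from 7.40, 6.22 and 3.88 CPM to 22.5, 17.0 and 9.39 CPM (1.48, adjusted p = 0.00686). The activators Arntl and Npas2 fell by 0.89 and 1.13, each losing its call without NoUV 2, NoUV 3, UV 2 or UV 3 (adjusted p up to 0.0873 and 0.0844). Per1, a glucocorticoid-responsive clock gene, overlapped between the groups, at 87.2, 57.9 and 15.9 CPM and at 70.7, 97.9 and 56.5 CPM (adjusted p = 0.495). The labels used here give no clock time of harvest, and a difference in it cannot be told apart from the treatment. The bases before the start of Ciart are shown because of the number of E-boxes they hold, the site that the clock activators bind. They are from RefSeq on GRCm38.p6, chr3:95882229-95882478, minus strand, with CACGTG in capitals.
Ciart: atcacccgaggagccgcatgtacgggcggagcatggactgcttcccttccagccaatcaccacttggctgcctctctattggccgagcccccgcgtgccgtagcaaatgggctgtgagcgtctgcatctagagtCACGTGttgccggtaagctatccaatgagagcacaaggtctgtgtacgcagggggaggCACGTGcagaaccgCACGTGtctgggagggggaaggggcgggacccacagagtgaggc
The 3 E-boxes begin 116, 58 and 44 bases before the start. At least 1 E-box stood in 6.02% of the 32851 promoters and at least 3 in 0.0609%, or 20 promoters.

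Protein stress responses were narrow. Of 20 heat shock and unfolded protein genes, 3 rose and 1 fell. Atf4, the effector of the integrated stress response, went from 173, 156 and 105 CPM to 297, 277 and 252 CPM (log2 fold change 0.93, adjusted p = 0.00285), and Dnajb9, a chaperone of the endoplasmic reticulum, went from 38.1, 47.8 and 48.9 CPM to 76.2, 68.3 and 119 CPM (0.97, adjusted p = 0.00371). The groups did not overlap for either. Ddit3, a stress factor that can lead to cell death, rose by 1.05, with its call lost without NoUV 2, NoUV 3, UV 2 or UV 3 (adjusted p up to 0.104). Trib3, a target of ATF4, fell by 1.10, with its call lost without NoUV 1, NoUV 3, UV 1 or UV 3 (adjusted p up to 0.0971). Of 20 NRF2 targets, which protect against oxidants, 1 rose and 2 fell: Fth1, the ferritin heavy chain, rose by 0.70 (adjusted p = 0.0105), and Txnrd1 and Gclc fell by 0.74 and 0.68 (adjusted p = 0.00862 and 0.0151). With only the wild-type libraries fitted, no NRF2 target passed, Gclc included (adjusted p = 0.0779 for Fth1 and 0.0733 for Txnrd1).

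The list with the lowest median was that of the late cornified envelope 1 (Lce1) genes, a cluster on chromosome 3 whose proteins are cross-linked into the outermost shell of dying keratinocytes. Of 14 tested, 13 fell, and the median log2 fold change was -2.90, beside 12.7% of all protein-coding genes called lower. The same 13 of 14 count was obtained without NoUV 1 and UV 2 and with only the wild-type libraries. Lce1d was at 76.5, 47.7 and 61.1 CPM without UVB and 5.68, 7.50 and 5.81 CPM with it (-3.29, SE 0.35, adjusted p = 1.99e-04). Lce1g went from 44.7, 19.8 and 43.6 CPM to 1.39, 2.34 and 2.39 CPM (-4.14, SE 0.62, adjusted p = 9.99e-04). Lce1k went from 22, 9.44 and 15.9 CPM to 1.00, 0.910 and 0.569 CPM (-4.26, SE 0.50, adjusted p = 3.14e-04). For each of these genes, every irradiated library was far below every unirradiated one. Lce1m, chosen after its values were seen, was the member not called: it was at 77.5, 162 and 74.8 CPM without UVB and 38.5, 83.7 and 32.8 CPM with it, with UV 2 inside the unirradiated range (-1.02, SE 0.36, adjusted p = 0.0640). Lce1 genes are close copies, and how reads shared between copies were counted is not given in the sources used here, so values of single members are uncertain.

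The promoters of 2 fallen Lce1 genes and of Lce1m are shown to set the member that was not called beside its neighbours. All 3 are RefSeq sequences on GRCm38.p6, minus strand, of the 250 bases before the start, at chr3:92687211-92687460 for Lce1d, chr3:92752339-92752588 for Lce1g and chr3:93019062-93019311 for Lce1m. Capitals mark CTGTCTCA and ATAAAAGG, 2 stretches chosen after the sequences and values had been seen and searched on both strands.
Lce1d: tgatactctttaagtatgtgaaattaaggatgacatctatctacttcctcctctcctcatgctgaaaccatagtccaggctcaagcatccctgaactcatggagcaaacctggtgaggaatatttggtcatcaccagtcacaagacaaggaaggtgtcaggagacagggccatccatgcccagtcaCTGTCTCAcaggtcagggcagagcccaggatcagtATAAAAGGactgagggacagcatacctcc
Lce1g: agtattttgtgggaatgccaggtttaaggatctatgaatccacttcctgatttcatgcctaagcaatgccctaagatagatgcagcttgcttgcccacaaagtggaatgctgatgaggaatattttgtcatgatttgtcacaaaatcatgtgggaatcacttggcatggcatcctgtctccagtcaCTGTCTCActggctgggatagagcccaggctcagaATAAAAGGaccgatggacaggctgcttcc
Lce1m: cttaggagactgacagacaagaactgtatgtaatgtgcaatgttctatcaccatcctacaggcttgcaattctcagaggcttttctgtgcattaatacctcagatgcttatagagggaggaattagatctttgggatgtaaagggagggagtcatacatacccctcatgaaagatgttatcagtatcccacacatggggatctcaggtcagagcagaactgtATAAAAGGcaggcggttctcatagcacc
In Lce1d and Lce1g the first stretch begins 64 and the second 29 bases before the start. Lce1m holds the second stretch alone, 28 bases before the start. Lce1l, named after its values were seen, also lacks CTGTCTCA, and it fell by 2.81 on the log2 scale (adjusted p = 4.89e-04), so that the stretch does not separate the member that was not called from those that fell. Of the 13 Lce1 genes with a promoter in the table, 11 hold CTGTCTCA and 10 hold ATAAAAGG, against 1.58% and 1.54% of all 32851 promoters.

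Other genes of the differentiated epidermis were less affected. Of 29 suprabasal and lipid barrier genes, 4 fell, or 8 without NoUV 1 and UV 2, with a median of -0.45. Kprp, a proline-rich protein of the same cluster, was at 316, 376 and 416 CPM without UVB and 85.6, 103 and 83.4 CPM with it (log2 fold change -2.02, SE 0.16, adjusted p = 3.55e-05). Grhl3, a transcription factor of barrier formation, went from 88.7, 71.8 and 63.3 CPM to 26.5, 48.7 and 24.2 CPM (-1.17, SE 0.24, adjusted p = 0.00533). Both pairs of groups were separate. The other calls in this list rested on 1 or a few libraries. Rptn was at 782, 63.6 and 472 CPM without UVB and 39.1, 50.1 and 79.7 CPM with it, and its call was lost without NoUV 1 or UV 2 (adjusted p = 0.0611 and 0.0685). Cdsn lost its call without NoUV 1, NoUV 3, UV 1 or UV 3 (adjusted p = 0.123, 0.109, 0.133 and 0.128). Of 17 stress keratins and alarmins, 2 fell. Krt6b, a keratin of wounded epidermis, was at 1658 CPM in NoUV 1, at 4.23 and 59.5 CPM in NoUV 2 and NoUV 3, and at 24.2, 20.4 and 23.4 CPM in the irradiated libraries. Its call (adjusted p = 0.0440) ended without NoUV 1 (adjusted p = 0.707) and without any irradiated library (adjusted p = 0.106, 0.147 and 0.0918 in order). Defb14, a beta defensin, went from 1.87, 1.39 and 3.17 CPM to 0.387, 0.193 and 0.825 CPM (-2.18, adjusted p = 0.0103).

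Several hair follicle genes fell. Of 9 markers of follicle stem cells, 5 fell, beside 12.7% of all protein-coding genes, 2 lay above 0, and the median was -0.84. The count was also 5 of 9 without NoUV 1 and UV 2. Lgr5, the receptor that marks stem cells of the lower follicle, was at 18.3, 28.9 and 37.3 CPM without UVB and 7.36, 3.72 and 3.96 CPM with it (log2 fold change -2.49, SE 0.30, adjusted p = 3.81e-04). Fgf18, a growth factor of the resting follicle, went from 7.47, 7.67 and 5.23 CPM to 1.84, 1.32 and 0.626 CPM (-2.43, SE 0.35, adjusted p = 8.57e-04). The transcription factors Tbx1, Lhx2 and Nfatc1 fell by 1.21, 1.13 and 0.84 on the log2 scale (adjusted p = 0.00320, 0.00665 and 0.00687), Lhx2 not passing with only the wild-type libraries fitted (adjusted p = 0.0537). The groups did not overlap for any of the 5, while the sum over all 9 markers did, at 1802 to 2213 CPM without UVB and 1777 to 1993 CPM with it. Of 12 tested markers of the growing follicle, 3 fell and 4 lay above 0. Sox21, a factor of the hair shaft, went from 42.4, 31.7 and 39.4 CPM to 8.17, 5.10 and 8.79 CPM (-2.36, SE 0.23, adjusted p = 1.51e-04). Foxn1 and Dlx3, factors of hair differentiation, fell by 1.26 and 1.31 (adjusted p = 0.00651 and 0.00580), Dlx3 not with only the wild-type libraries fitted (adjusted p = 0.0524). Of the 21 listed growing follicle markers, 7 stayed under 1 CPM in all 6 libraries, and the sums over the list overlapped, at 79.0 to 169 CPM without UVB and 26.7 to 123 CPM with it.

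Of 30 cell cycle genes, 5 fell and the median was -0.45, a share of falls near that of all protein-coding genes (12.7%). Ccna2, the cyclin of S phase and mitosis, was at 72.6, 68.9 and 68.9 CPM without UVB and 34.2, 20.4 and 41.2 CPM with it (log2 fold change -1.14, adjusted p = 0.00865). Ccnb1, the mitotic cyclin, went from 41.7, 30.9 and 25.1 CPM to 16.4, 10.0 and 13.5 CPM (-1.29, adjusted p = 0.0109), and its kinase Cdk1 fell by 0.94 (adjusted p = 0.0132, or 0.0589 with only the wild-type libraries fitted). Groups did not overlap for these genes. Without NoUV 1 and UV 2 the number called in the list was 2 rather than 5 and the median -0.22, with Ccnb1 at an adjusted p of 0.0920 and Cdk1 at 0.0716.

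Few of the listed collagen and matrix genes of the dermis changed. Of 12 endothelial markers, 1 rose and 3 fell, beside 4.55% and 12.7% of all protein-coding genes. With only the wild-type libraries fitted, 1 rose and 0 fell. Of 18 collagen and matrix genes, Lox, the enzyme that cross-links collagen and elastin, rose from 34.5, 40.1 and 61.3 CPM to 112, 69.4 and 98.0 CPM (log2 fold change 1.04, adjusted p = 0.00796), and Fn1 rose by 0.75 with a call lost without NoUV 1, NoUV 2, UV 2 or UV 3 (adjusted p = 0.0621, 0.0600, 0.0910 and 0.0924). Has1, a hyaluronan synthase, rose from 0.815, 0.379 and 0.299 CPM to 2.19, 9.10 and 5.01 CPM (3.40, SE 0.69, adjusted p = 0.00517). Lyve1, a hyaluronan receptor of lymphatic vessels and some macrophages, rose from 27.3, 15.3 and 14 CPM to 51.0, 37.1 and 59.4 CPM (1.38, adjusted p = 0.00565), whereas Prox1, which defines lymphatic endothelium, fell from 3.99, 6.31 and 6.42 CPM to 2.94, 1.30 and 2.36 CPM (-1.34, adjusted p = 0.0109, or 0.0644 with only the wild-type libraries). Apln, a peptide of endothelial tip cells, went from 4.01, 4.77 and 3.02 CPM to 1.45, 1.21 and 1.31 CPM (-1.57, adjusted p = 0.00104). Lyve1 and Prox1, both used as lymphatic markers, thus moved in opposite directions in the same libraries. Ngfr, a receptor of immature Schwann cells among others, fell from 12.9, 7.98 and 9.79 CPM to 4.58, 3.01 and 3.76 CPM (-1.44, adjusted p = 0.00167). Adipocyte markers, of which 2 of 12 rose, summed to 1724 to 1886 CPM without UVB and 2340 to 2926 CPM with it.

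Many of the rises were in annotated transcripts with no known protein product. The annotation class TEC, which Ensembl gives to transcripts that await experimental proof, had 1171 tested members, of which 588 rose (50.2%, beside 8.91% of all genes) and 5 fell, with a median log2 fold change of 1.62. Together these transcripts made up 518, 824 and 912 CPM in NoUV 1 to 3 and 1861, 1567 and 1668 CPM in UV 1 to 3, without overlap. The share that rose differed with position: 513 of 858 (59.8%) rose among those lying inside a protein-coding gene on the same strand, 12 of 63 (19.0%) on the opposite strand, and 63 of 250 (25.2%) outside such genes. The annotated class of sense-intronic RNAs, which lie within introns of a gene by definition, gave 86 rises of 166 (51.8%), with a median of 1.5. The host genes did not rise with them. Of 355 tested hosts of risen same-strand TEC transcripts, 5 rose and 84 fell, beside 4.55% and 12.7% of all protein-coding genes. The median over these hosts was -0.25. Protein-coding genes spanning 100 to 300 kb had a median of -0.26, with 2.19% called higher and 21.1% lower. The part of gene span in the host values was not tested. Of long intergenic RNAs, 129 of 759 rose (17.0%), and of antisense RNAs, 74 of 758 (9.76%). Counting settings for strand and for reads in introns are not given in the sources used here. Intronic RNA of the host and an RNA of its own cannot be told apart in these counts.

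Examples, chosen after their values were seen, show the size of this change. Gm47920, a sense-intronic RNA within Zmiz1 (GRCm38 chr14:25459980-25462387, plus strand), had 16, 7 and 15 counts without UVB and 291, 549 and 272 with it, a log2 fold change of 4.96 (adjusted p = 3.55e-05), while the log2 fold change of Zmiz1 was -1.01. Gm43274, a TEC transcript within Med13l (chr5:118644373-118649372, plus strand), had 14, 11 and 15 counts and then 91, 120 and 104 (3.06, adjusted p = 8.22e-05), with its host at -0.65. Gm45222 in Picalm had 23, 32 and 33 counts and then 446, 328 and 271 (3.65, adjusted p = 1.32e-04), with its host at -0.11. In each case, the irradiated libraries were alike and far above the others. Without NoUV 1 and UV 2, 406 of 1219 tested TEC transcripts rose (33.3%), and with only the wild-type libraries fitted, 311 of 917 did (33.9%). Between 450 and 552 rose when any 1 library was left out.

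**Figure D3:**
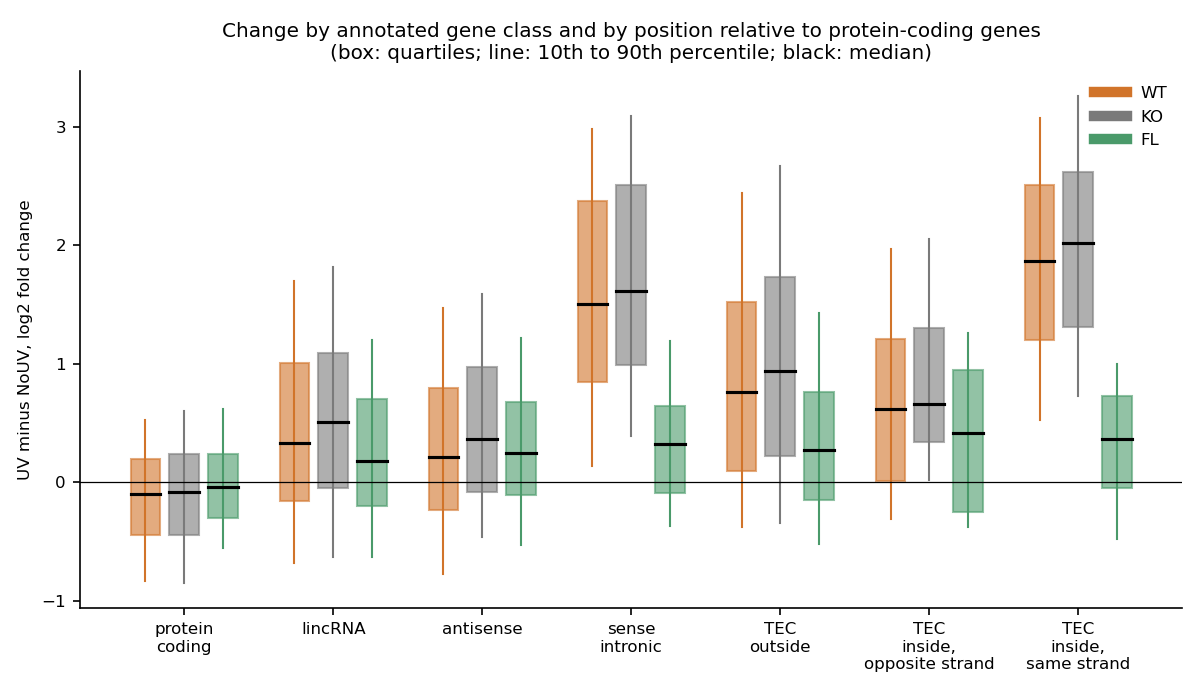
Log2 fold change of UV against NoUV by annotated gene class and by the position of TEC transcripts relative to protein-coding genes, in wild-type (WT), knockout (KO) and floxed control (FL) skin. Boxes span the quartiles, thin lines the 10th to 90th percentiles and black bars the medians, which for same-strand TEC transcripts were 1.87 in WT, 2.02 in KO and 0.37 in FL.

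Gene length was related to the change only in part. Genes spanning under 10 kb in the genome had a median log2 fold change of 0.20, with 15.8% called higher and 3.70% called lower. Those spanning 100 to 300 kb had a median of -0.25, with 2.51% called higher and 20.4% lower. The difference between these medians was -0.45 over all libraries, and taken for UV 1, UV 2 and UV 3 alone it was -0.16, -0.65 and -0.58. UV 1 thus showed the least of this difference. It did not continue into the longest genes: spans of 500 kb or more had a median of -0.07, or 0.15, -0.22 and -0.11 for UV 1, UV 2 and UV 3 alone. In protein-coding genes alone, from which the TEC transcripts are absent, the medians were 0.04 under 10 kb, -0.06 at 10 to 30 kb, -0.19 at 30 to 100 kb, -0.26 at 100 to 300 kb, -0.18 at 300 to 500 kb and -0.09 above. In floxed controls the medians over all classes were 0.18 under 10 kb and -0.35 at 100 to 300 kb. They were -0.44 at 300 to 500 kb and -0.31 at 500 kb or more. All these medians are descriptions over genes, which are not replicates.

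The homeobox genes of the Hox clusters, which keep a record of the position along the body from which a cell came, also differed between the groups. Of 29 tested, 8 were called higher and 2 lower, and 5 higher with only the wild-type libraries fitted. Hoxc10 (GRCm38 chr15:102966796-102971893) had 1, 0 and 0 counts in the unirradiated libraries and 161, 168 and 272 in the irradiated ones, a ratio of 649 after scaling to depth (exact 95% interval 116 to 25675, counting error only). Hoxb9 went from 1.39, 1.64 and 1.70 CPM to 8.36, 8.99 and 15.7 CPM (log2 fold change 2.81, adjusted p = 1.51e-04). Hoxa9 went from 2.0, 3.09 and 2.81 CPM to 13.3, 7.44 and 11.3 CPM (2.02, adjusted p = 6.01e-04), and Hoxa10 from 1.17, 0.820 and 1.13 CPM to 4.07, 2.54 and 4.41 CPM (1.81, adjusted p = 0.00149). No library departed from its group in these 4 genes, which are used in the trunk and rear of the body. Knockout skin showed the same contrast in Hoxc10, at 0.0363 ± 0.0188 CPM without UVB and 5.70 ± 0.864 CPM with it (SD, n = 3). In floxed controls, all 4 unirradiated libraries had Hoxc10 counts, 4, 66, 146 and 120, and the irradiated ones had 42, 0, 52 and 128. The labels used here do not say from which part of the body each sample was cut. A difference in body site between the groups and an effect of UVB cannot be told apart for these genes, and the same limit touches any gene whose level varies along the body.

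**Figure D4:**
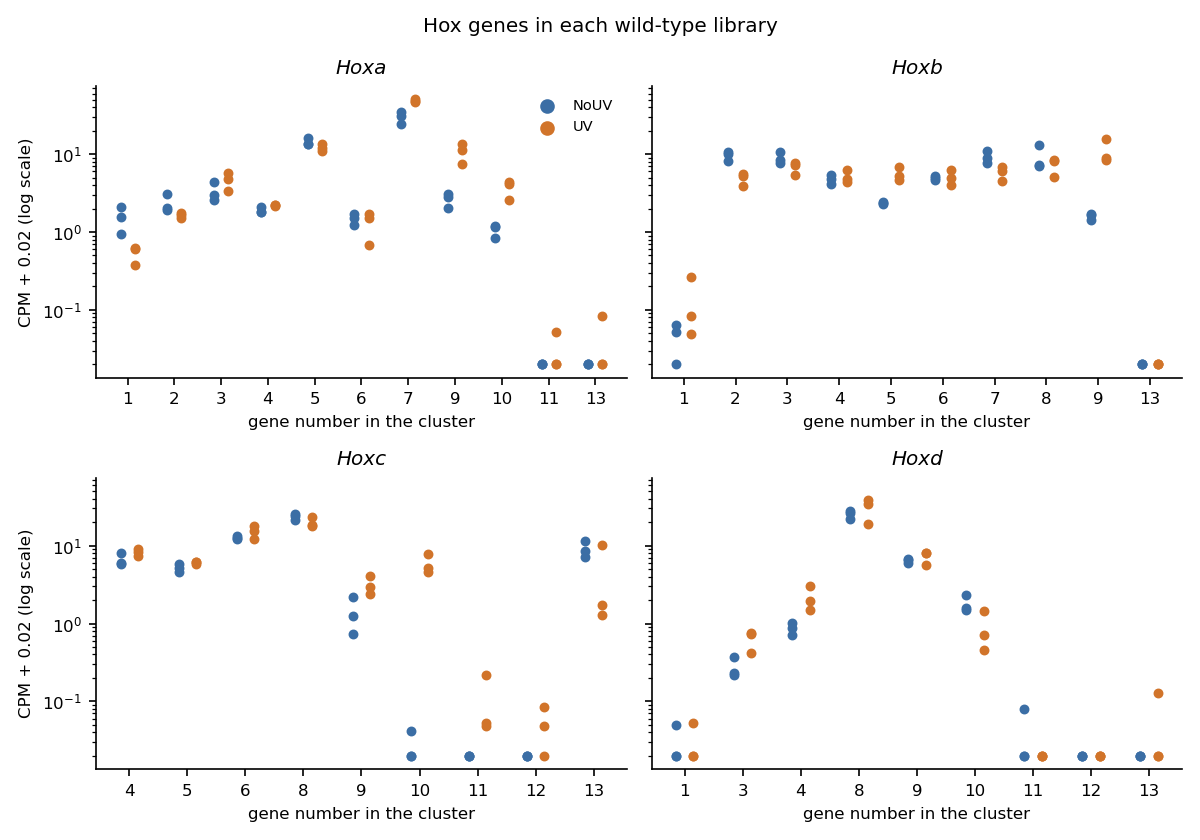
CPM plus 0.02 (log scale) of every Hox gene in the 3 NoUV (blue) and 3 UV (orange) wild-type libraries, in 4 panels for the 4 clusters, with genes in order of their number. Hoxc10 is absent or nearly so in the NoUV libraries and between 4.63 and 7.74 CPM in the UV libraries, and Hoxa9, Hoxa10 and Hoxb9 are also higher.

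Other genes with the largest changes fell outside these lists. Kctd4, a potassium channel domain protein, went from 30.5, 44.4 and 72.0 CPM to 8.65, 5.49 and 6.32 CPM (log2 fold change -2.84, adjusted p = 1.99e-04). Tmem51, a membrane protein, went from 20.5, 9.06 and 11.2 CPM to 2.49, 2.23 and 1.65 CPM (-2.68, adjusted p = 2.60e-04). G0s2, an inhibitor of triglyceride breakdown, went from 13.1, 4.61 and 7.44 CPM to 1.13, 0.910 and 1.88 CPM (-2.68, adjusted p = 0.00142). The irradiated libraries of all 3 genes lay close together below the others, and separate groups were a condition for naming these genes. Among the rises, Sfrp4, a secreted Wnt antagonist, went from 4.41, 3.22 and 3.64 CPM to 15.8, 13.1 and 31.1 CPM (2.41, adjusted p = 9.78e-04), and the amine oxidase gene Aoc2 went from 2.60, 1.64 and 1.94 CPM to 5.94, 15.5 and 14.6 CPM (2.54, adjusted p = 5.09e-04). Lncpint, a long non-coding RNA that p53 can induce, went from 0.617, 2.68 and 2.24 CPM to 18.6, 17.2 and 6.97 CPM (2.97, adjusted p = 0.00315).

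The wild-type response was set beside that of skin lacking VISTA by a test of the difference between the 2 responses. None of 20365 genes passed in edgeR (0%), and DESeq2 called 0. In edgeR 313 had an unadjusted p under 0.05, fewer than evenly spread p-values would give. The lack of calls thus does not show that the responses were equal. The intervals remained wide: the knockout response minus the wild-type one was 0.59 for Ccl7 on the log2 scale (95% interval -0.60 to 1.77), 0.23 for Dusp5 (-0.69 to 1.14) and -0.05 for Lce1d (-1.03 to 0.93). In 1 draw of counts simulated from these libraries for each fold, 200 of 20365 genes differed in truth. The test of the difference called 0.5% of them at 2-fold and 62.5% at 4-fold. The knockout showed the rise of TEC transcripts too, with 706 of 1171 higher (60.3%) and a median of 1.76.

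The second set of controls gave a partly different response. In floxed controls, 1502 of 19718 genes were called (7.62%), 695 higher (3.52%) and 807 lower (4.09%). Of 1660 wild-type rises that were tested in both, 288 rose in floxed controls (17.3% of the wild-type rises and 47.1% of the 612 floxed ones), and 86.6% had the same sign there. Of 1979 wild-type falls, 419 also fell (21.2%, or 53.2% of the 788 floxed falls), and 88.2% had the same sign. The Lce1 genes were alike, with 12 of 14 lower in floxed controls and a median of -2.93. Of 25 immediate early genes, 18 were higher in floxed controls, at a median of 1.00, and 2 passed in the test of the difference. Of 30 interferon-stimulated genes, 5 were higher there, at a median of 0.64, and for Ifit1 the wild-type minus floxed difference was -0.49 (adjusted p = 0.856). Of TEC transcripts, 82 of 1123 were higher in floxed controls (7.30%), with a median of 0.34, in libraries of 7.12 to 30.51 M counts.

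Tested directly, 262 of 21851 responses differed between wild-type and floxed skin (1.20%), 180 with the wild-type change higher (0.824%) and 82 with it lower (0.375%). Of the 180, 112 were TEC transcripts, 13 sense-intronic RNAs and 32 protein-coding genes, whereas 79 of the 82 were protein-coding. Without NoUV 1 and UV 2, 4 TEC transcripts passed. Dusp5 was at 29.0 ± 3.35 CPM without UVB and 26.1 ± 8.31 CPM with it in floxed controls (SD, n = 4 each), where it was not called, and the wild-type minus floxed difference was -1.93 on the log2 scale (95% interval -2.72 to -1.15, adjusted p = 0.0127). Dusp7 was at 231 ± 38.4 and 264 ± 59.1 CPM there (difference -1.37, interval -2.0 to -0.75, adjusted p = 0.0233), and Fosl2 at 375 ± 16.6 and 420 ± 54.7 CPM (-0.98, interval -1.39 to -0.57, adjusted p = 0.0147). These 3 genes fell in wild-type skin and were not called in floxed skin, where the log2 fold changes were -0.15, 0.19 and 0.16 in the same order. Fos rose in floxed controls by 2.01 on the log2 scale (adjusted p = 0.0171), but its difference from wild type did not pass (-2.39, interval -4.17 to -0.61, adjusted p = 0.192). Fewer differences passed under other choices: 11 without NoUV 1 and UV 2, and 20 with only the wild-type and floxed groups fitted. Batch date, genotype and count table all differ between these experiments and cannot be told apart. Protein-coding genes held 82.43% to 90.61% of counts in the wild-type libraries and 94.25% to 96.9% in the floxed ones. Ribosomal RNA genes held 0.233% to 1.087% and 0.019% to 0.067%.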

How the data were processed

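Whole-skin RNA was sequenced after ribosomal RNA depletion with a stranded total RNA kit, per the labels' protocols. The submitters' processing notes name cutadapt 4.6, HISAT2 2.1.0, featureCounts from Subread and the build GRCm38; strand and multi-mapping settings are not given in the sources used here. The deposited values are raw counts per gene, made by the authors, for 55573 genes in the table that holds the wild-type and knockout libraries. The floxed control libraries come from a separate deposited count table and were fitted within it. Gene positions matched those of the GENCODE M21 annotation of GRCm38 for 99.616% of shared identifiers in the wild-type table and 2.762% in the floxed one. The gene positions of the 2 tables thus differ, although the processing notes name GRCm38. Whether the gene models differ too, and the part of this in differences between the experiments, was not tested.

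The test was that of edgeR 4.0.16 under R 4.3.3 (quasi-likelihood test, trimmed mean of M values, edgeR's filter on low counts), with all 4 wild-type and knockout groups in the wild-type fit. A gene was called at a Benjamini-Hochberg adjusted p under 0.05 over all genes tested. The difference between wild-type and floxed responses was tested in 1 fit over both tables, on gene identifiers they share. Alternatives were DESeq2 1.42.0, other scalings and filters, only the groups compared, a replicate block and each library left out; a fit without NoUV 1 and UV 2 together was chosen after seeing the data. In 1 draw of counts simulated from these libraries for each fold, 200 of 20365 genes were changed. The wild-type test called 35.5% of those changed by 2-fold and 76.5% of those changed by 4-fold. The 200 are fewer than the 3817 called in the data, so these percentages do not carry over to the data.

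Named genes were the 12 largest rises and 12 largest falls whose log2 CPM averaged 2 or more and whose groups were separate, up to 6 members of each of 48 lists with the smallest p, a set of fixed genes and the 6 longest genes. The members and lists were chosen with earlier results of these data known. Fosl1, Btg2, Egr3, Lce1l, Lce1m, the host genes and the transcripts named with Gm were chosen after their values were seen. Promoter sequences are from RefSeq. A gene that the rule names is not reported here.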

Additional observations from a re-analysis of the deposited data

Results flagged for a closer look

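The change after UVB differed between wild-type and floxed control skin, by the test of the difference itself, for the 6 genes given here. Of the 2 immediate early genes that passed this test, only Fosl2 is among them. The wild-type minus floxed difference was -1.93 on the log2 scale for Dusp5 (adjusted p = 0.0127, edgeR), -1.37 for Dusp7 (adjusted p = 0.0233), -0.98 for Fosl2 (adjusted p = 0.0147) and -3.38 for Tnnt1, a slow muscle troponin (adjusted p = 0.0423). Within wild-type skin, Tnnt1 lost its call without NoUV 2 or UV 1 (adjusted p = 0.136 and 0.0741). The difference was 1.16 for Hoxb5 (adjusted p = 0.0450) and 9.35 for Hoxc10 (adjusted p = 0.00701), where the value for Hoxc10 is a fitted one against nearly empty unirradiated libraries and is not a measure of size. The 2 experiments differ in batch date, genotype and the gene positions of their count tables. The part of each in these differences was not tested.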

How the results depend on the processing

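Of 108 named genes called in wild-type skin, 59 kept their call and direction in every alternative, and no called gene changed direction. Fitting only the 2 groups compared removed 39 of these calls and left 1288 genes called in all, and leaving out NoUV 1 and UV 2 removed 24. Without 1 library, the wild-type count ranged from 2734 to 4315. Of the genes not called, Fos changed sign without NoUV 1 (its log2 fold change without 1 library ran from -0.80 to 0.88) and without NoUV 1 and UV 2 (0.77), and Ifit1 without UV 3 (-0.85 to 1.27). In floxed controls 953 genes were called with only the 2 groups, 992 without a filter, 2443 by DESeq2, and 884 to 1564 without 1 library. The test of wild-type minus floxed responses called 20 genes with only those groups, 137 without a filter, 703 by DESeq2, 11 without NoUV 1 and UV 2, and 65 to 423 without 1 library. With a replicate block, 3687 genes were called in wild type, 2129 in floxed controls and 332 for the difference. Deviations of same-numbered wild-type libraries from their group means correlated at -0.383, -0.238 and 0.334, and those of NoUV 1 and UV 2 at 0.526. Deviations within a group balance by construction, so these values cannot decide whether the numbers mark pairs. The test of knockout minus wild-type responses called 0 genes in each alternative. Depth limits genes of few counts, such as Csf3, Ccr7 and Il10.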
